A study of Mus musculus with 2 samples.

Results

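The Eph and ephrin, netrin and Slit guidance genes were 36 of the 21853 protein-coding mouse genes of the GENCODE vM21 annotation. They were chosen by name as the receptors and ligands of these families, 23 receptors and 13 ligands. The rule used no measured value, but the choice was made with earlier results of these data known. The receptors were Epha1 to Epha8 and Epha10, Ephb1 to Ephb4 and Ephb6, Robo1 to Robo3, Dcc, Neo1 and Unc5a to Unc5d. The ligands were the ephrins Efna1 to Efna5 and Efnb1 to Efnb3, Slit1 to Slit3, Ntn1 and Ntn4. A peak within 500 bp of a transcription start site of a member was its promoter peak. A peak whose centre lay over 1 kb from every protein-coding start site was distal and was counted for the gene whose start site was closest. This gave the members 1380 of the 163161 distal peaks in replicate 1 and 967 of the 120640 in replicate 2. The assignment is by distance alone and does not show that a peak acts on the gene.

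Open chromatin was mapped by DNase-seq, which sequences the ends left where the enzyme DNase I cuts accessible DNA in nuclei. The tissue was whole neural tube of B6NCrl mouse embryos at 11.5 days of development of both sexes pooled and labelled healthy. There was 1 group of 2 biological replicates, each 1 library from its own tissue sample with a donor label shared by both. The labels give no second group, so no test across conditions was possible, and each value below is given for both libraries.

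Guidance receptors on a growing axon read ligands on or from other cells and turn the axon toward or away from them. Eph receptors are tyrosine kinases that bind ephrins held on the membrane of the neighbouring cell. Netrin-1 draws commissural axons to the ventral midline through Dcc, and Slits repel axons through Robo receptors after crossing. Unc5 receptors turn a netrin signal into repulsion.

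The peak lists held 199653 peaks in replicate 1 and 154324 in replicate 2, all 150 bp wide, and no read counts, so the sequencing depth is unknown. Each of 12 neural tube marker genes, among them Sox2, Pax6 and Olig2, had a promoter peak in both libraries. Of 10 endothelial markers, 7 had a promoter peak in replicate 1 and 6 in replicate 2 and Cdh5 and Eng had none in either. Of 10 mesoderm and somite markers, 8 and 10 had one, and of 10 neural crest markers, 9 and 8. Among all protein-coding genes, 68.5% had one in replicate 1, 67.7% in replicate 2 and 66.5% in both. The endothelial counts were near these shares and do not show whether endothelial cells were present. Several members also work outside neurons, such as Efnb2 in arteries and Ephb4 in veins, and the part of other cell types in the peaks below was not tested. In bulk tissue, a site open in few cells and a site weakly open in many cannot be told apart.

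The promoters of the guidance genes were almost all open, meaning that they held a peak. A promoter peak was found for 34 of the 36 members in replicate 1 and for 36 of 36 in replicate 2, beside 68.5% and 67.7% of all protein-coding genes. In both libraries together the counts were 34 of 36 members and 66.5% of all genes, and no promoter peak in either library was found for 0 of 36 members and 30.4% of all genes. Of the receptors, 21 of 23 had a promoter peak in replicate 1 and 23 of 23 in replicate 2, whereas 13 of 13 ligands had one in each library. Hotspots, the broader regions called by the authors, gave much the same picture. The 500 bp window of a start site overlapped a hotspot at the top −log10 q-value of 100 for 35 of 36 members in each library. The shares of all genes were 64.7% and 62.5%.

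The receptors Epha8 and Epha10 were the 2 exceptions. Epha8, an ephrin-A receptor, had a promoter peak in replicate 2 with a score from the authors of 34, at the 7.22 percentile of genes with one. The nearest peak in replicate 1 lay 7086 bp from its start site. Its promoter met a hotspot only in replicate 2, with a −log10 q of 1.66. Epha10, a receptor without kinase activity, had a promoter peak in replicate 2 with a score of 21, at the 3.29 percentile and the lowest of the members. In replicate 1 a strong peak, with a score of 135, lay 791 bp from its start site and so outside the 500 bp window. A hotspot with a −log10 q of 100 overlapped the 500 bp window of an Epha10 start site in both libraries. Thus Epha8 alone was weak by both measures, as judged among promoters. In the whole peak list of replicate 2, the Epha8 peak stood at the 62.7 percentile by score and the Epha10 peak at the 39.6. Epha10 missed the window in 1 library and had a weak promoter peak in the other, but met a top hotspot in both.

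The scores of the promoter peaks were ordinary for an open gene. Peaks are called strong or weak by rank of score alone, and what the score measures is unstated. The median member stood at the 46.3rd percentile of promoter scores in replicate 1 and the 42.3rd in replicate 2, counted over all genes with a promoter peak. The highest scores belonged to Efnb2, the arterial and neural ephrin-B2 (143 in replicate 1 and 134 in replicate 2), Epha7, a receptor of ephrin-A5 (143 and 132), Ephb3 (141 and 134) and Neo1, which binds netrins and repulsive guidance molecules (142 and 125). Each of these 4 stood above the 81st percentile in both libraries. Among members open in both libraries, Robo3, the divergent receptor that commissural axons need to cross the midline, was lowest in each, with scores of 65 and 48, and Epha1 followed with 80 and 49. Slit1 (100 and 76), Slit3 (94 and 71), Epha6 (101 and 65) and Ntn4 (104 and 66) also stood below the 25th percentile in both libraries. The members named at either end were picked for standing there in both lists, so their likeness does not measure agreement between the libraries. Agreement over all members was not measured. Some others differed between the lists, such as Ephb4, at the 54.2nd percentile in replicate 1 and the 79.3rd in replicate 2. Ephb2 moved the other way, from 56.5 to 35.4.

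**Figure D1:**
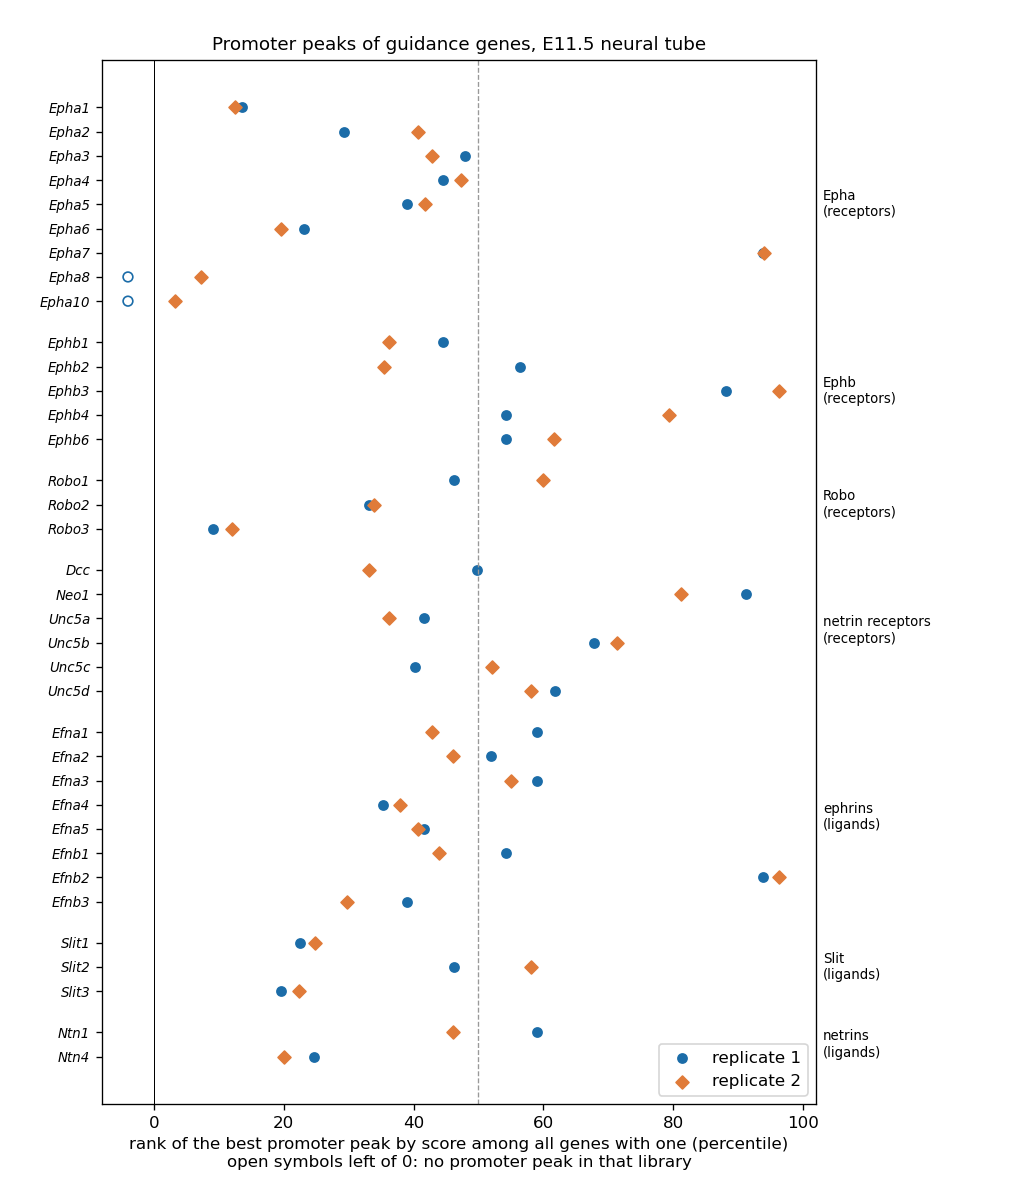
Rank of the best promoter peak of each guidance gene among all genes with a promoter peak (percentile, horizontal axis) in replicate 1 (circles) and replicate 2 (diamonds), receptors above ligands. Efnb2, Epha7, Ephb3 and Neo1 stand at the right in both libraries, and the open circles mark Epha8 and Epha10, which had no promoter peak in replicate 1.

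The promoter hotspots were wider at the median than those of all genes, as in other guidance genes. Their median width was 2483 bp in replicate 1 and 1590 bp in replicate 2 for the members, beside 1568 bp and 1166 bp for all genes. For 40 further genes of these pathways it was 2336 bp and 1778 bp. For 31 semaphorin, plexin and neuropilin genes it was 1978 bp and 1506 bp. Efna5, the ligand that repels axons bearing Epha receptors, had the widest, at 5432 bp and 5140 bp, and Slit2 had 4571 bp and 3981 bp. Robo3 had 601 bp and 391 bp. The members' start sites were also richer in CpG than those of all genes. The ratio of observed to expected CpG in the 500 bp to either side of the best start site had a median of 0.754 for members and 0.614 for all genes. The value for all genes includes genes without a promoter peak. In the 40 further pathway genes the median was 0.831, and in the 31 semaphorin, plexin and neuropilin genes 0.736. Whether CpG content bears on the promoter peaks was not tested.

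Alternative start sites mostly had no peak. Start sites of a gene within 1 kb of each other were counted as 1 site, and 14 of the members had more than 1. At least 2 separate sites with a peak were found in 3 of 36 members in each library, near the 8.36% and 7.67% of all genes. Ephb3 was open at 3 of its 3 sites, and Efna1 and Ntn1 at 2 of 2. By contrast, Robo2 was open at 1 of 5 sites, Robo1 and Unc5a at 1 of 3, and Epha4, Ephb2, Ephb6, Robo3, Efnb2, Slit2 and Neo1 at 1 of 2, the same number in both libraries. Epha10 was open at 0 of 2 sites in replicate 1 and 1 of 2 in replicate 2. For Robo1 the open site was the one at position 72663149 of chromosome 16, and its other sites lay at least 1270 bp from any peak.

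The promoter peak with the best mean rank in each family is shown to let its letters be read beside its score. For the netrins, that of Ntn1 is not shown, because too few of its bases lay outside annotated exons. Sequences are from the RefSeq copy of GRCm38.p6, the assembly called mm10, given 5′ to 3′ on the strand of the gene and limited to bases outside annotated exons. Capitals mark matches, on either strand, to any of 11 short consensus strings of transcription factors. They were GGGCGG for the Sp and Klf family, the E-box CAGCTG and the proneural E-box CAGATG. Further strings were ACAATG for Sox factors, the homeodomain core TAATTA and the POU octamer ATGCAAAT. The string TGANTCA stood for AP-1, and TTGGCA for nuclear factor I. For the TCF and LEF factors of Wnt signalling it was ATCAAAG, for TEAD factors GGAATG, and for GATA factors GATAAG. The peak of Epha7 was at chr4:28812976-28813125 on the plus strand, that of Ephb3 at chr16:21204516-21204665 on the plus strand and that of Neo1 at chr9:59036576-59036725 on the minus strand. The bases shown for Efnb2 were chr8:8661243-8661345 on the minus strand, for Slit2 chr5:47983056-47983137 on the plus strand and for Robo1 chr16:72663076-72663148 on the plus strand.
Epha7: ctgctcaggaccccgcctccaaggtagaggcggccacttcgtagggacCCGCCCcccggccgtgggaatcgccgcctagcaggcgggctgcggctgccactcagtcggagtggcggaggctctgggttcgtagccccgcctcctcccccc
Ephb3: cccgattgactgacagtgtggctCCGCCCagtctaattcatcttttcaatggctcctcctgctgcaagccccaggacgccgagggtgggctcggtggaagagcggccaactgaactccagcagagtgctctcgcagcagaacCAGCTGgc
Neo1: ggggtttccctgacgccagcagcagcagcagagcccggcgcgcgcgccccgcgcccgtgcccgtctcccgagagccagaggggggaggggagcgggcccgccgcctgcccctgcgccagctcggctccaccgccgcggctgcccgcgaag
Robo1: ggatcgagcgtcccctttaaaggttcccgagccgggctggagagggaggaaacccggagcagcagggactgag
Efnb2: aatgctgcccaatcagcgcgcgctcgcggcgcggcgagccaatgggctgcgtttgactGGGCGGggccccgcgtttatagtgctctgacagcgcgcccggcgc
Slit2: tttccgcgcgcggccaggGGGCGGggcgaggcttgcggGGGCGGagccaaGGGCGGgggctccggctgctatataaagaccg

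The Slit2 stretch held 3 Sp/Klf matches and Epha7, Ephb3 and Efnb2 held 1 each, whereas Robo1 and Neo1 showed none of the 11 strings. A Sp/Klf match was found in 42.9% of the members' promoter peaks in replicate 1 and 48.4% in replicate 2, beside 42.3% and 45.2% of all promoter peaks. These shares were close to each other, and a match is a string of letters, not evidence of binding. Ephb3 also held an E-box, CAGCTG, at the end nearest to its start site.

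Around the promoters, the guidance genes had many distal peaks. The median member had 28.5 distal peaks in replicate 1 and 18.5 in replicate 2, beside 3 and 2 for all protein-coding genes, and each of the 36 had at least 1 in both libraries. Among the top 10% of genes by distal peaks, which took at least 21 peaks in replicate 1 and 16 in replicate 2, stood 24 and 23 members of 36, beside 9.83% and 9.39% of all genes. Members also had more of the genome nearest to them. This length, the territory of a gene, had a median of 208.4 kb for members and 46.4 kb for all genes. Over all territory together, members had 5.86 distal peaks per 100 kb in replicate 1 and 4.11 in replicate 2, against 5.99 and 4.43 for all genes, so the density over their summed territory was no higher than in the genome as a whole.

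Genes of like territory gave a different comparison, because the summed density is dominated by a few very large territories. For territories under 50 kb, 9 members had medians of 6 and 9 distal peaks in replicates 1 and 2, against 1 and 1 for 11460 genes of that size. For territories of 50 to 200 kb, 8 members had medians of 20 and 21.5, against 6 and 4 for all genes. From 200 to 1000 kb, 8 members had 34.5 and 31, against 21 and 13. Over 1000 kb, 11 members had 90 and 37, against 33 and 16. In each of the 4 ranges the members' median was above that of all genes of the range in both libraries. These medians are descriptions of named genes, without a test.

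**Figure D2:**
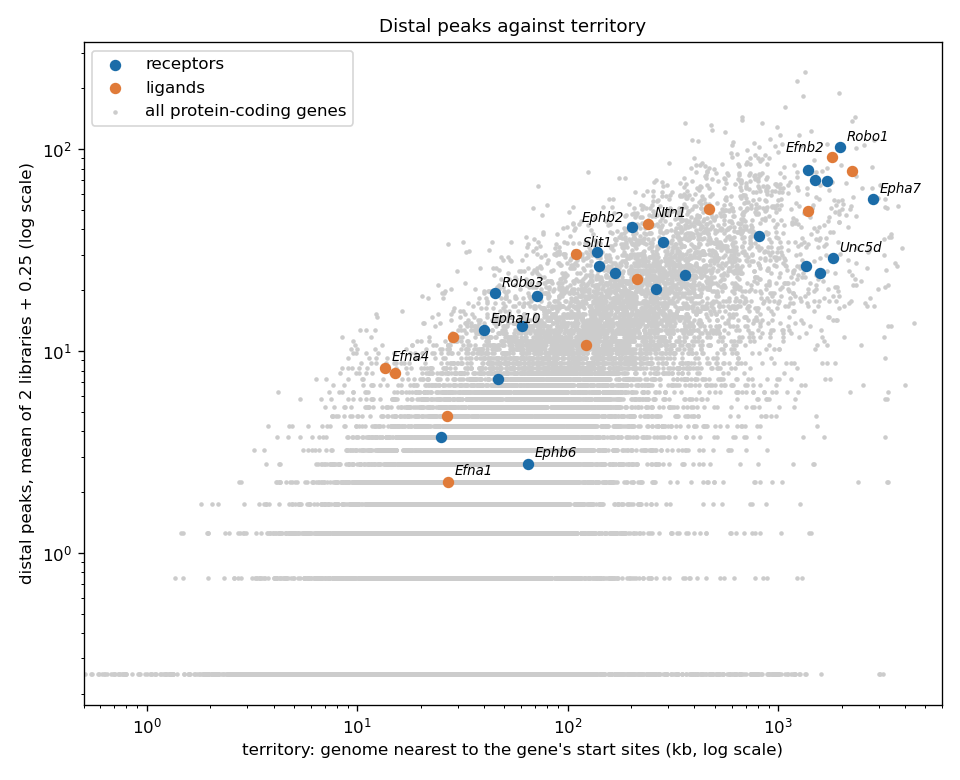
Distal peaks per gene (mean of the 2 libraries plus 0.25, log scale) against the length of genome nearest to the gene (kb, log scale), with receptors in blue, ligands in orange and all protein-coding genes in grey. Most guidance genes lie in the upper part of the grey cloud at their own territory, with Efna1 and Ephb6 below the other members of like territory.

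Receptors and ligands differed little in the number of distal peaks. The 23 receptors had medians of 30 in replicate 1 and 19 in replicate 2, and the 13 ligands had 27 and 18. The difference of 2 between the means of these medians turned to -1.5 with equal numbers of peaks in both lists, to -1 with the higher-scoring 50% of each list and to -2.5 with peaks within 100 kb, so no order of receptors and ligands was stable. Per length of summed territory the order was steadier. Receptors had 5.53 and 3.56 distal peaks per 100 kb of their summed territory, and ligands had 6.69 and 5.48. Ligands stayed above receptors in this summed density under each alternative that gave it for both. By the median gene density within ranges of territory the order was mixed. Under 50 kb it was 28.8 and 22.2 for receptors and 22.4 and 42.1 for ligands, and from 50 to 200 kb 16.8 and 17.8 for receptors and 19.9 and 16.0 for ligands. From 200 to 1000 kb it was 9.57 and 5.74 for receptors and 12.6 and 12.2 for ligands, and over 1000 kb 4.41 and 1.61 for receptors and 4.40 and 2.95 for ligands. These ranges held between 2 and 8 genes each. Receptors had the larger territories, with a median of 261.2 kb against 122.2 kb for ligands.

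**Figure D3:**
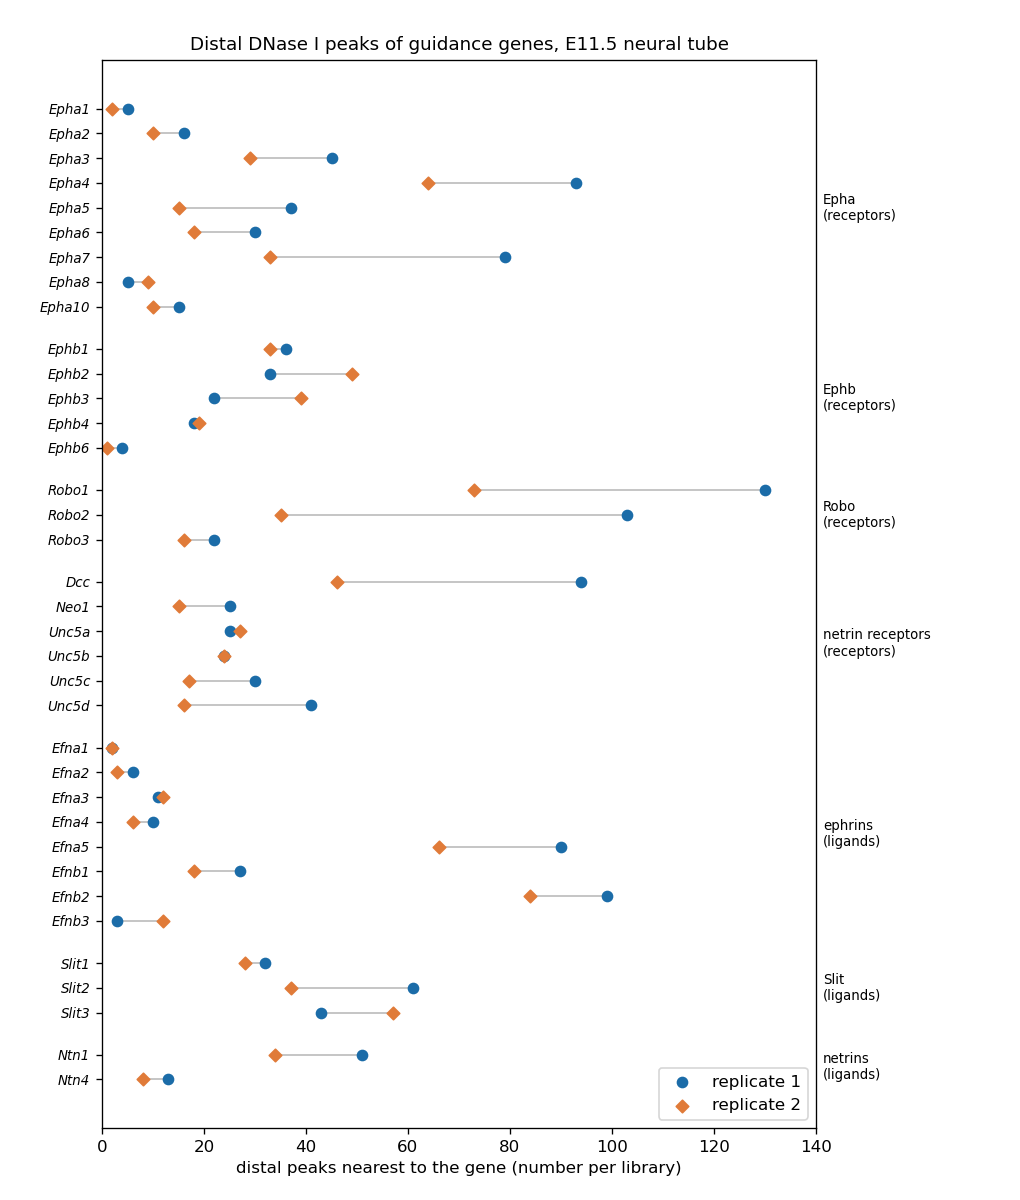
Number of distal peaks nearest to each guidance gene in replicate 1 (circles) and replicate 2 (diamonds), grouped by family with receptors above ligands. Robo1 with 130 peaks in replicate 1 and Efnb2 with 84 in replicate 2 lie furthest to the right in their library, Efna1 has 2 in each, and only some genes, among them Ephb2, Ephb3, Slit3 and Efnb3, have more peaks in replicate 2.

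The Epha receptors spanned nearly the whole range. Epha4, which steers limb motor axons and keeps corticospinal axons from crossing back over the midline, had 93 distal peaks in replicate 1 and 64 in replicate 2. Epha7 had 79 and 33, and its territory of 2809 kb was the longest of the 36. Epha3, a receptor of motor axons to axial muscle, had 45 and 29. Epha5 had 37 and 15, and Epha6 had 30 and 18, both in territories of over 1000 kb. The small genes of this family had fewer, with 16 and 10 for Epha2, 15 and 10 for Epha10, 5 and 9 for Epha8 and 5 and 2 for Epha1. As a group the Epha receptors had 4.0 peaks per 100 kb in replicate 1 and 2.34 in replicate 2, the lowest summed density of the 7 families in both libraries. By the median gene, at 6.68 and 4.60, the Robo receptors were lower, at 6.59 and 3.70. The small genes lay well above the summed value, with 37.7 and 25.1 per 100 kb for Epha10, 26.3 and 16.4 for Epha2, 19.9 and 7.97 for Epha1 and 10.8 and 19.4 for Epha8. At Epha10, 14 of its 15 peaks in replicate 1 lay in a single stretch of 12.9 kb inside the gene.

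The Ephb receptors had compact territories and dense peaks. Ephb2, which guides commissural axons of the forebrain, had 33 distal peaks in replicate 1 and 49 in replicate 2, and 31 and 47 of these lay inside the gene. Ephb1 had 36 and 33, Ephb3 had 22 and 39, Ephb4 had 18 and 19, and Ephb6, another receptor without kinase activity, had 4 and 1. The family had 14.9 and 18.5 peaks per 100 kb. Ephb6 stood apart with 6.21 and 1.55 per 100 kb, although its promoter was open in both libraries.

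Among the Robo receptors, Robo1 had the most distal peaks of all members in replicate 1, with 130, and 73 in replicate 2. Robo2 had 103 and 35, and 51 and 35 when both lists were held to equal numbers of peaks. Robo1 and Robo2 are the main Slit receptors of spinal commissural axons, and both span long introns, with 67 and 45 of the Robo1 peaks inside the gene. Robo3, with a territory of only 45.2 kb, had 22 and 16, or 48.7 and 35.4 per 100 kb. Of these, 12 in each library lay within 8.08 kb, centred 23.4 kb upstream of the Robo3 start site and outside the gene. Robo3 therefore joined one of the weakest open promoters to one of the densest sets of distal peaks.

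Of the netrin receptors, Dcc, the receptor for attraction by netrin-1, had 94 distal peaks in replicate 1 and 46 in replicate 2, with 67 and 31 inside its 1097 kb gene. The Unc5 genes, receptors for repulsion, were more alike, with 25 and 27 for Unc5a, 24 and 24 for Unc5b, 30 and 17 for Unc5c and 41 and 16 for Unc5d. Neo1 had 25 and 15. Unc5d was sparse at 2.25 and 0.879 per 100 kb, in contrast to Unc5a at 17.7 and 19.1. The 4 Unc5 genes had between 16 and 41 peaks in territories from 141.2 kb for Unc5a to 1821 kb for Unc5d.

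The ephrins fell into large and small genes. Efnb2 had 99 distal peaks in replicate 1 and 84 in replicate 2, the most of any member in replicate 2. Efna5 had 90 and 66, and Efnb1, the X-linked ephrin needed in craniofacial development, had 27 and 18. The others had at most 12 in either library. Efna4, Efna3 and Efna1 lie side by side on chromosome 3 within 66.3 kb. Efna4 had 10 and 6 distal peaks, Efna3 had 11 and 12, and Efna1 had 2 and 2. Together these neighbours had 33.4 and 29.0 per 100 kb, and Efna4 alone reached 74.1 and 44.4. Nearest-gene assignment among such close neighbours is arbitrary within a few kb. Efna2 had 6 and 3. Efnb3, which marks the midline barrier of the spinal cord, had 3 in replicate 1 and 12 in replicate 2.

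The Slits were high throughout, with 61 and 37 for Slit2, 43 and 57 for Slit3 and 32 and 28 for Slit1. All 3 ranked among the top 10% of genes in both libraries. Ntn1, the gene of netrin-1, had 51 and 34, of which 39 and 26 were inside the gene. Ntn4, a netrin that binds laminins, had 13 and 8. The pair of netrins had 17.7 and 11.6 per 100 kb, and 57.8% and 88.1% of their peaks were found in the other library as well.

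Many of the distal peaks lay far from the start sites. Over 100 kb away were 52.8% of the members' distal peaks in replicate 1 and 48.4% in replicate 2, beside 26.2% and 22.9% of all distal peaks. Inside the member's own gene lay 46.3% and 49.8%, beside 39.03% and 39.08% for all. The direction, taken from the nearest start site of the gene whether or not that site had a peak, differed from gene to gene. A peak inside a gene can thus count as upstream of an internal site. Efnb2 had 96 of 99 distal peaks downstream of its start sites in replicate 1 and 82 of 84 in replicate 2, and the farthest lay at 1749 kb and 1685 kb. Epha10 had all of its 15 and 10 downstream, and Ntn1 had 43 of 51 and 31 of 34 downstream. Slit2 had 48 of 61 and 28 of 37 upstream of the nearest site. Only 36 and 23 Slit2 peaks lay outside the gene, so some of those counted as upstream lay inside it, before an internal site without a peak. Robo3 had 20 of 22 and 13 of 16 upstream. Epha7 was balanced in replicate 1, with 40 of 79 upstream, but had 22 of 33 upstream in replicate 2.

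**Figure D4:**
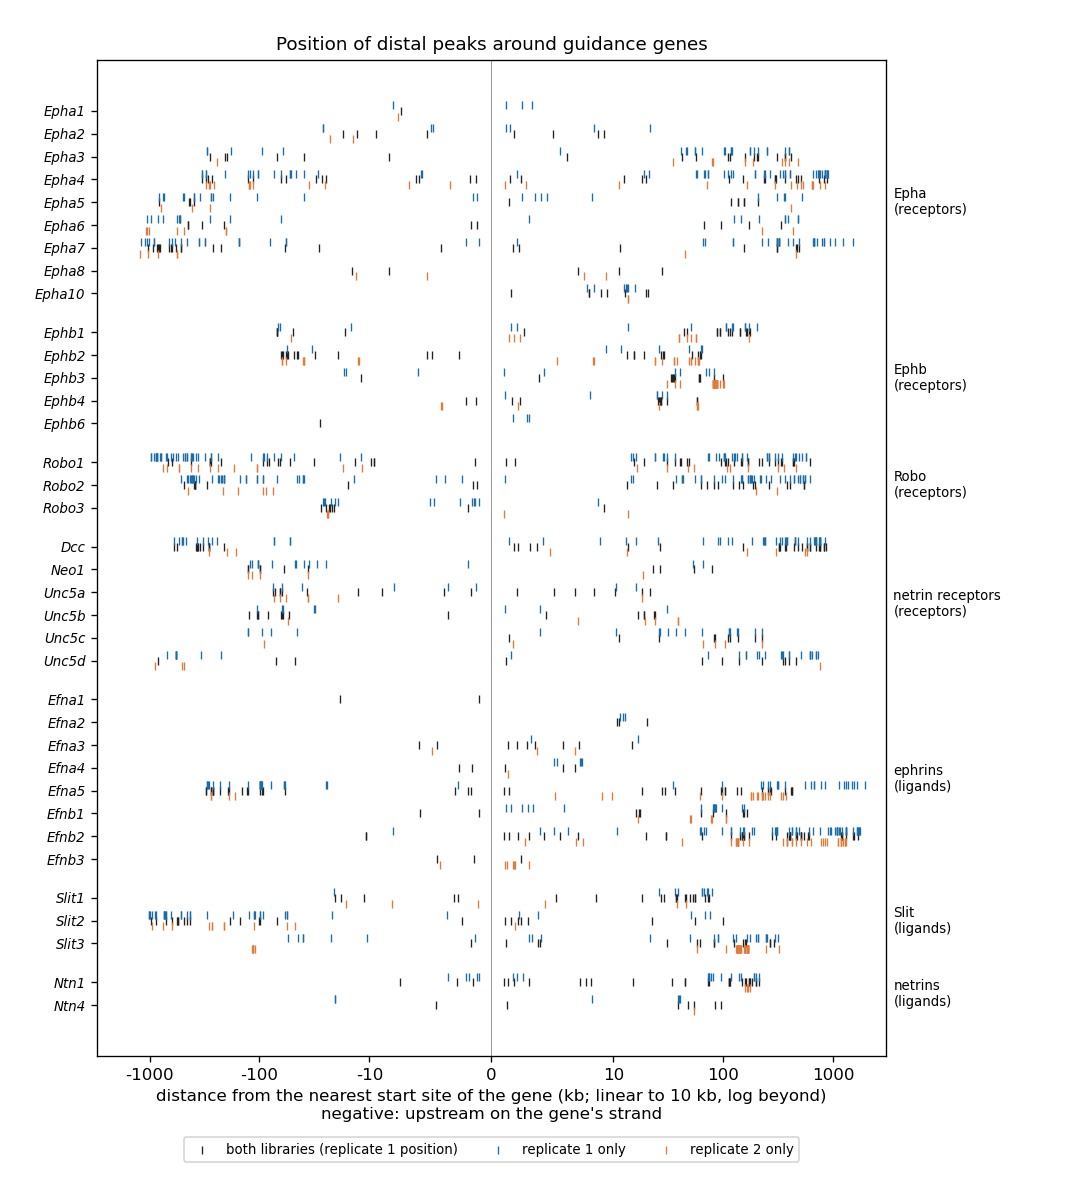
Distance of each distal peak from the nearest start site of its guidance gene (kb, linear to 10 kb and logarithmic beyond, negative upstream), with black ticks for peaks in both libraries, blue for replicate 1 only and orange for replicate 2 only. Efnb2 peaks lie almost all downstream, Robo3 peaks gather upstream near 23 kb, and runs of orange ticks stand out at Ephb3 and Slit3.

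Dense stretches of up to 20 kb were found at several genes. Each was chosen as the densest of its gene in replicate 1, and the peaks of replicate 2 were counted in the same stretch. This choice favours replicate 1, so the counts do not compare the libraries. Ntn1 had 15 peaks in replicate 1 and 9 in replicate 2 in 17.9 kb inside the gene. Efnb2 had 14 and 12 in 12.8 kb inside the gene, and Slit1 had 11 and 11 in 18.6 kb inside the gene. In Ephb2, 10 and 12 peaks lay in 18.8 kb of the gene. Ephb3 had 7 and 7 in 6.58 kb centred 37.0 kb away. At Efna5 the stretch held 12 peaks in replicate 1 and 3 in replicate 2 and was centred 96.8 kb away.

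For each family, the top distal peak by mean rank of score, among those in both libraries, is shown, so that each family has 1 site whose letters can be read. Some sites that are not shown, such as one of Efna3, ranked above the Slit3 site. Sequences are the plus strand of GRCm38.p6, with capitals for matches to the same 11 strings. That of Epha4 was at chr1:77516296-77516445, 1282 bp upstream of the start site. That of Ephb2 was at chr4:136755576-136755725, in an intron, 61.6 kb from an internal start site with no peak and 80.2 kb from the start sites that had one. That of Robo3 was at chr9:37420816-37420965 and overlaps an exon of the gene 9.24 kb from the nearest start site. That of Unc5a was at chr13:54956176-54956325, in an intron 6.84 kb away. Those of the ligands were at chr17:62882936-62883085 for Efna5 (1693 bp upstream), at chr11:35151656-35151805 for Slit3 (intron, 30.5 kb) and at chr11:68399676-68399825 for Ntn1 (intron, 1073 bp).
Epha4: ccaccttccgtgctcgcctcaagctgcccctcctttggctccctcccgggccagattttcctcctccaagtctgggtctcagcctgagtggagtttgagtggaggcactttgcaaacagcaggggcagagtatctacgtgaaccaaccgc
Ephb2: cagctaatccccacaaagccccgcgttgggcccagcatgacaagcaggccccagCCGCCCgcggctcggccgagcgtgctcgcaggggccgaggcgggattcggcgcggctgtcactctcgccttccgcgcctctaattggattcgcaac
Robo3: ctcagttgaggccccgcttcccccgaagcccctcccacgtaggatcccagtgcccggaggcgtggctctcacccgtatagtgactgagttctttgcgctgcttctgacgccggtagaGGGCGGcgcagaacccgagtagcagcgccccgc
Unc5a: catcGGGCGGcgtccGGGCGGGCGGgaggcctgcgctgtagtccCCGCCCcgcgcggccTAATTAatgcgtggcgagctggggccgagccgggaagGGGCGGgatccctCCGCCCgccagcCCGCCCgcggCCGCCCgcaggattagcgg
Efna5: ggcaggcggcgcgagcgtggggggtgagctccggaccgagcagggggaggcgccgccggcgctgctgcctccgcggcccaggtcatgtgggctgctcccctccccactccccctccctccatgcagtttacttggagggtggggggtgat
Slit3: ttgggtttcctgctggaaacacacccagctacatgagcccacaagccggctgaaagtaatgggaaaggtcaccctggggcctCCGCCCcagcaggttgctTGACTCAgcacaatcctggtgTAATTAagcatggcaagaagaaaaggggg
Ntn1: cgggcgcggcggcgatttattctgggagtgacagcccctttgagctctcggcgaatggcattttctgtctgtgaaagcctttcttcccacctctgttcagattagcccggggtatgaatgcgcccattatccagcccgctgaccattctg

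The Ephb2 site was the strongest of these, with a score of 135 in replicate 1 and 124 in replicate 2. These stood at the 97.5 and 98.1 percentiles of their lists. The Unc5a site scored 129 and 118 and held 8 Sp/Klf matches and 1 homeodomain match in 150 bp, at a GC content of 78.7%. The Slit3 site scored 112 and 86 and held 1 match each to the AP-1, Sp/Klf and homeodomain strings. The Robo3 site scored 121 and 113 with 1 Sp/Klf match. Epha4 (126 and 101), Efna5 (129 and 109) and Ntn1 (130 and 101) had none of the 11 strings in these windows. Few distal peaks of the guidance genes were this strong. In the top 10% of the list by score were 49 of the members' distal peaks in replicate 1, or 3.55%, and 19 in replicate 2, or 1.96%, beside 3.55% and 2.52% of all distal peaks. Of these 49 and 19, 47 and 19 were found in the other library, or 95.9% and 100%, beside 96.9% and 98.1% of all distal peaks in that class. Ntn1 had 5 and 2 of them, and Robo3 and Efna5 had 4 and 3 each.

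Of the 11 strings, 7 occurred more often in the members' distal peaks than in all distal peaks in both libraries, and 1, Sp/Klf, less often in both. TAATTA was found in 5.80% of the members' distal peaks in replicate 1 and 4.65% in replicate 2, beside 3.84% and 2.53% of all. ACAATG was found in 12.6% and 9.62%, beside 9.54% and 7.95%. The POU string was found in 1.52% and 1.34%, beside 1.27% and 0.967%, and the TCF/LEF string in 3.04% and 2.79%, beside 2.44% and 2.08%. For AP-1, NFI and TEAD the differences were smaller in at least 1 library. Several strings, among them those for homeodomain, Sox, TEAD and AP-1, were more frequent in receptor peaks than in ligand peaks in both libraries. TAATTA was in 6.87% and 5.17% of receptor peaks and in 3.57% and 3.82% of ligand peaks. ACAATG was in 14.2% and 10.8% of receptor peaks and in 9.38% and 7.63% of ligand peaks. Receptor peaks also had the lower mean GC content, 47.8% and 51.8%, against 50.4% and 52.7% for ligand peaks, and the part of base composition in these shares was not tested.

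Sharing between the 2 libraries followed the score of a peak, in members as in all distal peaks. Of the members' distal peaks, 43.5% in replicate 1 and 63.8% in replicate 2 overlapped a distal peak of the other library by at least 1 bp, beside 48.1% and 66.3% of all distal peaks. In the lower 50% of the list by score, these shares were 19.3% and 48.2% for members, beside 23.2% and 48.2% for all. Between that class and the top 10% they were 74.5% and 85.1% for members, beside 79.3% and 90.9% for all. Those found in replicate 1 alone had a mean GC content of 46.0%, and the members' peaks of that library found in both had 52.1%.

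The balance of the libraries differed between families and also between genes of a family. For members together the log2 ratio of distal peaks in replicate 1 over replicate 2 was 0.51, near the 0.44 of all distal peaks. The log2 ratio was 1.04 for the Robo receptors, 0.77 for the Epha receptors and -0.32 for the Ephb receptors. Among the Ephb genes, Ephb2 (33 and 49), Ephb3 (22 and 39) and Ephb4 (18 and 19) had more in replicate 2. Ephb1 (36 and 33) and Ephb6 (4 and 1) had more in replicate 1. Epha8 (5 and 9) went against the other Epha genes. Robo2 (log2 ratio 1.56), Unc5d (1.36), Epha5 (1.303), Epha7 (1.26) and Dcc (1.03) leaned most to replicate 1 among members with over 30 peaks there. With equal numbers of peaks in both lists these gaps narrowed, to 51 and 35 for Robo2, 27 and 16 for Unc5d, 18 and 15 for Epha5, 49 and 33 for Epha7 and 59 and 46 for Dcc, each still higher in replicate 1. The log2 ratio of the Epha receptors was then 0.24 and that of the Ephb receptors -0.50. More peaks in replicate 2 were found for 8 of 36 members, beside 21.3% of all genes with a distal peak, and these were Epha8, Ephb2, Ephb3, Ephb4, Efna3, Efnb3, Slit3 and Unc5a. Distal peaks of Robo genes had a mean GC content of 44.9% and 48.6%, and those of Ephb genes 54.9% and 55.7%. Across the 36 members, the log2 ratio of a gene fell with the GC content of its distal peaks, with a Pearson r of -0.506 and a Spearman rho of -0.636. Across all 4224 genes with at least 20 distal peaks in the 2 libraries together, these were -0.427 and -0.467. Such correlations are across genes of the same 2 libraries, whose genes are not independent replicates, and what lies behind them was not tested.

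**Figure D5:**
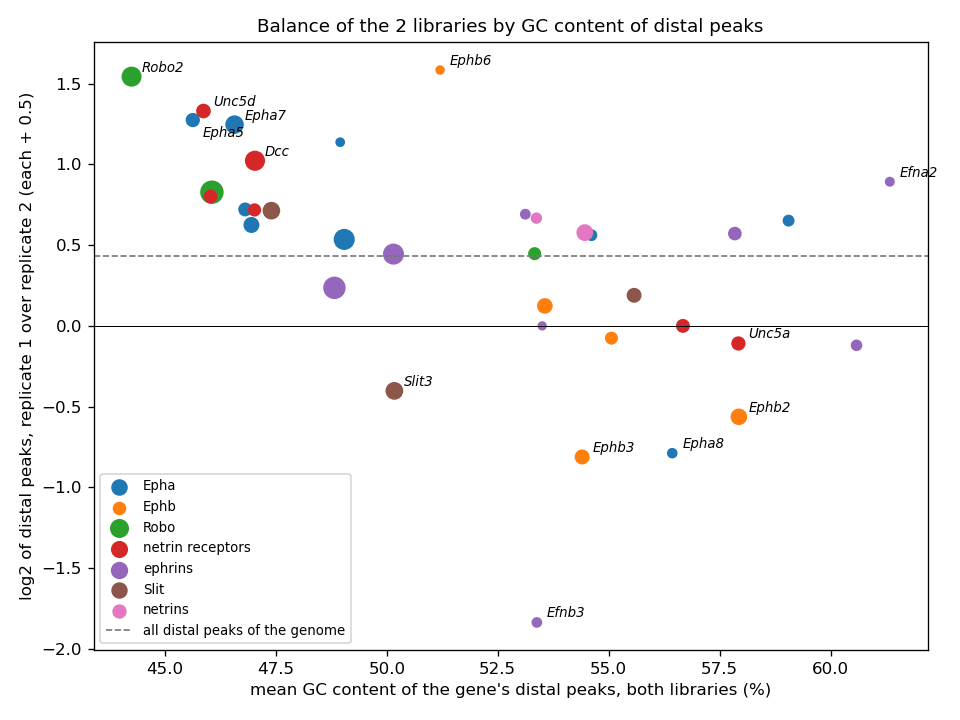
Log2 ratio of distal peaks in replicate 1 over replicate 2 (each plus 0.5, vertical axis) against the mean GC content of the distal peaks of each guidance gene (%), coloured by family, with larger points for more peaks. Robo2, Unc5d, Epha5 and Epha7 stand at low GC content and high ratio, while Ephb2, Ephb3 and Epha8 lie below 0 at higher GC content. The dashed line marks the ratio of all distal peaks.

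Runs of weak peaks in a single library made part of this difference. Near Ephb3, 22 peaks found in replicate 2 alone lay within chr16:21292336-21312365, where replicate 1 had 3 distal peaks in all. Near Slit3, 17 lay within chr11:35276696-35289185, inside the gene, where replicate 1 also had 3. Their scores were low, with a median at the 1.81 percentile of the list for Ephb3 and the 2.84 percentile for Slit3. At least 15 distal peaks of 1 library alone within 20 kb were found for 0 of 36 members in replicate 1 and 2 of 36 in replicate 2, beside 0.412% and 0.517% of all genes. Without its run Ephb3 had 22 distal peaks in replicate 1 and 17 in replicate 2, and Slit3 had 43 and 40, so both then had more in replicate 1. The Ephb family then had 113 and 119, a log2 ratio of -0.075. Ephb2, with 33 and 49, had at most 7 peaks of replicate 2 alone in any 20 kb.

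Other guidance genes served as a frame. A further 40 genes of these pathways were counted, among them the netrin Ntn3, the netrin-G Ntng1 and the signalling partners Fyn, Trio and Srgap1. Of these, 38 had a promoter peak in replicate 1 and 39 in replicate 2, beside 68.5% and 67.7% of all genes. Their median number of distal peaks was 22.5 and 16.5. Rgma, a ligand of Neo1, had 74 in each library and was the highest by the mean. Robo4, the endothelial relative of the Robo receptors, had a promoter peak in replicate 1 only, and Ntn5 and Flrt1 in replicate 2 only. Of 31 semaphorin, plexin and neuropilin genes, another guidance system, 29 had a promoter peak in each library, beside 68.5% and 67.7% of all genes. They had medians of 13 and 12 distal peaks, beside 28.5 and 18.5 for the Eph, netrin and Slit genes, in territories with a median of 86.2 kb beside 208.4 kb. The Eph, netrin and Slit genes had 5.86 and 4.11 distal peaks per 100 kb of summed territory, against 8.41 and 5.74 for the semaphorin group. By the median gene the densities were 10.7 and 8.19 against 10.6 and 7.77, so the order turned with the way density was taken.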

How the data were processed

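The authors deposited peaks and hotspots called separately in each library on mm10, per the library records that accompany the files. Which aligner and peak caller they used, in which version and with what cutoff, was not given in the sources used here. Each deposited peak carries a score, a whole number of at most 150 of unstated meaning, used only to rank peaks within a list. Each deposited hotspot carries a −log10 q-value that is held at 100 at the top. Rows repeating a position were removed, 45 in replicate 1 and 22 in replicate 2. Start sites were the starts of protein-coding transcripts of protein-coding genes on the main chromosomes, 54361 in all. The planned list of alternatives named this choice and starts of all transcripts in the other order, and the choice that matches the rule for members was taken as main. A percentile of score is a rank in percent, among genes with a promoter peak or among peaks of the list. Tied scores took their mean rank. By distal peaks, genes were placed by the share of genes with a lower count. Territory is the length of genome nearest to the start sites of a gene. Counts were made with Python 3.11.15, pandas 2.3.3 and numpy 2.4.6, and the counting code was tested on simulated data. No test was run, because 1 group of 2 libraries gives none across samples and genes are not replicates. All members were named, sequences were chosen by the best mean rank of score in each family, and the runs near Ephb3 and Slit3 were singled out after their values were seen. The members and the gene lists were chosen with earlier results of these data known. Alternatives were the higher-scoring 50% of each list, equal numbers of peaks, other distances, hotspots in place of peaks, an overlap of 75 bp and each library alone.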

Additional observations from a re-analysis of the deposited data

How the results depend on the processing

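Counts of members, receptors and ligands with a promoter peak, 34, 21 and 13 in both libraries, moved by less than 1.5 times under every alternative run, and each library alone gave 34 to 36, 21 to 23 and 13. With each library alone, median distal peaks per gene were 18.5 to 28.5 for members, 19 to 30 for receptors and 18 to 27 for ligands, with a difference of 1 to 3. Densities per 100 kb were 4.11 to 5.86, 3.56 to 5.53 and 5.48 to 6.69. The mean of the libraries gave medians of 23.5, 24.5 and 22.5. With the higher-scoring 50% of each list, the medians were 10.8, 10 and 11 and the densities 2.1, 1.81 and 2.84, by construction fewer peaks. The share of replicate 2 peaks found in replicate 1 was 83% there, and the cause was not tested. With peaks within 100 kb, medians were 14.8 for members and 14 for receptors, and these peaks over the full territory came to 2.44, 2.25 and 2.93 per 100 kb for members, receptors and ligands. The ligand density was 5.12 with hotspots and 5.16 beyond 5 kb. The median of receptors minus ligands, 2 with all peaks, was -1 with the higher-scoring 50%, -1.5 with equal numbers, -2.5 within 100 kb, 4 with hotspots and 10.5 with starts of all transcripts, and the cause was not tested. The log2 ratio of replicate 1 over replicate 2 kept its sign for Epha (0.24 to 0.92) and Ephb (-0.50 to -0.17) under the alternatives set for it, and for Ephb was -0.075 without the Ephb3 run. No paired analysis was possible because there is only 1 group. Depth is unknown, so a missing peak is not shown to be closed chromatin.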
